A study of Ovis aries and Bos taurus with 15 samples.

Results

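VCAM1, ICAM1, SELE (E-selectin) and SELP (P-selectin) are the endothelial surface proteins that catch leukocytes from flowing blood. They were followed across 15 Affymetrix bovine arrays in 3 groups of 5. A probe set was taken where the platform annotation gave it a single gene symbol and that symbol was one of the 4. Each gene had 1 such probe set, so these were 4 of 9155 named genes and 4 of the 24016 probe sets tested. The annotation gives them the NCBI Gene identifiers 282118 (VCAM1), 281839 (ICAM1), 281484 (SELE) and 281486 (SELP). No gene had a further probe set against which its values could be set.

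Selectins make the first, short-lived contacts that slow a leukocyte, by binding carbohydrate ligands on its surface. VCAM1 and ICAM1, members of the immunoglobulin superfamily, then hold it firmly through leukocyte integrins. VCAM1 binds the α4 integrins and ICAM1 the β2 integrins. In resting endothelium these genes are usually low and are switched on through NF-κB by cytokines such as TNF and IL-1, whereas P-selectin is also stored in granules and brought to the surface within minutes.

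The bovine cells, labelled BAEC, were controls with no treatment named for them. The ovine cells, labelled PAEC and pulmonary endothelial by the study's title, received the vehicle DMSO or GW9662 at 5 µM for 24 h. GW9662 binds PPARγ covalently and blocks it; this nuclear receptor is known in endothelium to restrain inflammatory genes. All cells were grown in DMEM with serum, and the labels name no cytokine for any group. The bovine and ovine controls differ in species, in the cells used and in the vehicle at once, and these cannot be told apart. Whether the replicates came from separate cultures or animals is not in the labels. The p-values therefore describe the spread between these samples, which may be technical.

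Values are log2 expression values from RMA. Array medians ran from 3.18 to 3.27, and the mean over the 15 arrays was under 3 for 45.9% of probe sets. The files give no signal over background, so a value near or under 3 cannot be told from no expression, and the number of arrays limits the precision. The endothelial label could be read against its markers. PECAM1 was at 11.7, 11.6 and 11.5 in bovine control, ovine vehicle and GW9662 cells, and CDH5 at 11.6, 11.5 and 11.3. TEK was at 10.9, 10.2 and 10.2, EMCN at 10.0, 9.97 and 9.87, and NOS3 at 9.94, 9.27 and 9.17. ERG was at 9.69, 9.89 and 9.79, and EGFL7 at 9.47, 9.01 and 8.93. TIE1 was at 9.39, 9.20 and 9.13, and ROBO4 at 9.31, 7.64 and 7.46. VWF was near the floor in all 3 groups, at 2.28, 2.31 and 2.29. The tight junction gene CLDN5 was near it in the ovine groups, at 5.03, 2.45 and 2.43. KDR was at 3.08, 2.64 and 3.79 and FLT1 at 3.21, 2.90 and 2.84. With GW9662 KDR was higher than with vehicle by 1.15 (limma adjusted p = 0.217).

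VCAM1 was the most changed of the 4 between the species. On the bovine arrays it read 3.00, 2.65, 1.90, 2.50 and 2.00 in replicates 1 to 5. On the ovine vehicle arrays it read 9.35, 9.32, 9.55, 9.30 and 9.37, and on the GW9662 arrays 9.05, 9.06, 9.05, 9.16 and 9.10. The bovine arrays lay at the floor and the 10 ovine arrays far above it. The vehicle and GW9662 arrays did not overlap, with 0.141 between the lowest vehicle and the highest GW9662 array.

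ICAM1 read 4.86, 4.89, 4.49, 5.14 and 4.81 on the bovine arrays. On the ovine vehicle arrays it read 8.57, 8.76, 8.54, 8.67 and 8.61, and with GW9662 8.39, 8.27, 8.57, 8.44 and 8.45. All ovine arrays were above all bovine ones. The vehicle and GW9662 arrays overlapped by a single array, GW9662 replicate 3, which lay just above the lowest vehicle value.

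SELE read 3.14, 3.21, 3.18, 3.22 and 3.18 on the bovine arrays, a range of only 0.0707 close to the floor. It read 7.61, 7.68, 8.0, 8.23 and 7.98 with vehicle. With GW9662 it read 7.76, 7.18, 7.89, 7.83 and 7.80. Here the ovine groups overlapped broadly, and SELE had the widest spread of the 4 among the ovine arrays (SD 0.25 and 0.29).

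SELP read 4.12, 3.63, 4.01, 3.64 and 3.94 on the bovine arrays and 7.67, 7.83, 7.99, 7.69 and 7.84 with vehicle. With GW9662 it read 7.44, 7.53, 7.73, 7.59 and 7.51. As for ICAM1, only GW9662 replicate 3 reached into the vehicle range. For each of the 4 genes the group means ran in 1 order, vehicle highest, GW9662 next and bovine control lowest.

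**Figure D1:**
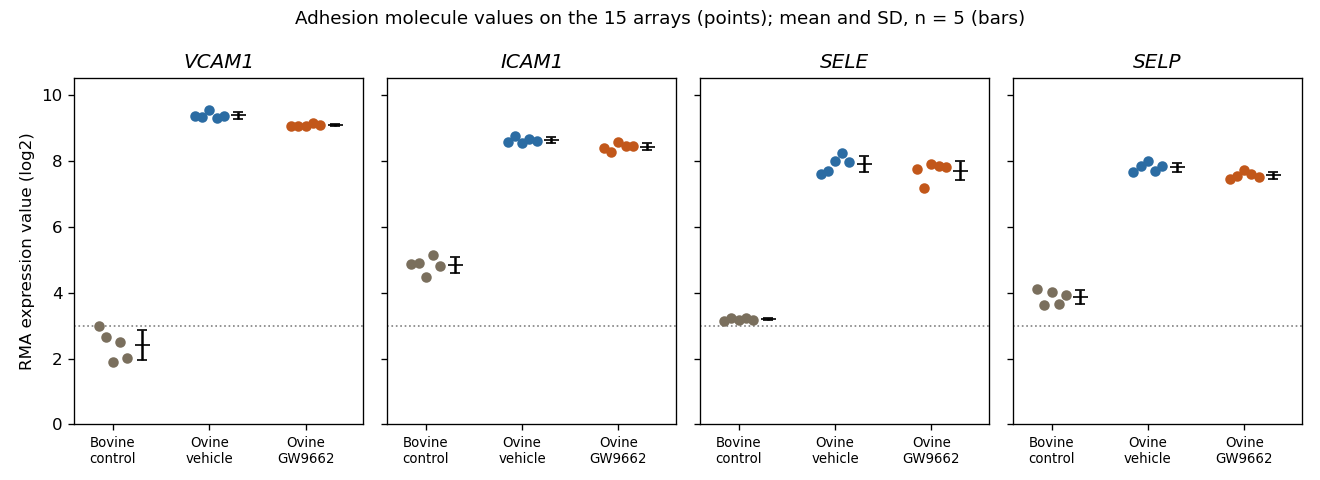
RMA log2 values (vertical axis) of VCAM1, ICAM1, SELE and SELP on the 15 arrays, 5 per group, with the group mean and SD beside the points; the dotted line marks a value of 3. Every ovine array lies above every bovine array for each gene, and the vehicle and GW9662 points are separate only for VCAM1. Over all probe sets, 40.5% had the bovine arrays below all vehicle arrays, and 12.7% had the GW9662 arrays below all vehicle arrays.

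The first comparison asked whether blocking PPARγ altered these genes in ovine PAEC. None of the 4 passed limma's test at an adjusted p of 0.05, and 3 of them were lower at an unadjusted p under 0.05. Over all probe sets 0.183% passed the adjusted threshold, and at the unadjusted one 14.5% were lower and 6.87% higher. All 4 differences were negative, as were 64.9% of all differences.

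VCAM1 came closest. Its mean was 9.38 ± 0.098 (SD, n = 5) with vehicle and 9.09 ± 0.045 (SD, n = 5) with GW9662. The log2 difference was -0.29 (SE 0.046, 95% interval -0.40 to -0.19), a linear ratio of 0.818, with a limma adjusted p of 0.0627 and an unadjusted p of 0.000154. It ranked 58th of 24016 probe sets by p. Groups without overlap, GW9662 below vehicle, were seen in 12.7% of all probe sets. The adjusted p was 0.0475 when each gene was tested by its brightest probe set alone, 0.0255 after a second quantile normalisation, 0.0386 with array weights and 0.0185 without vehicle replicate 3, the highest VCAM1 array. Under the other alternatives run it stayed above 0.05, between 0.0572 and 0.584.

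SELP was at -0.24 (SE 0.072, 95% interval -0.41 to -0.080), from 7.80 ± 0.13 to 7.56 ± 0.11 (SD, n = 5 each). ICAM1 was at -0.21 (SE 0.059, 95% interval -0.34 to -0.072), from 8.63 ± 0.088 to 8.42 ± 0.11. Both had a limma adjusted p of 0.217. The intervals of these genes exclude 0 before adjustment over the array, and the adjusted p-values do not pass.

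SELE was at -0.21 with an SE of 0.16, from 7.90 ± 0.25 to 7.69 ± 0.29 (SD, n = 5 each). Its 95% interval ran from -0.58 to 0.16, which is a linear ratio of 0.670 to 1.12 (limma adjusted p = 0.399). The difference was -0.08 without GW9662 replicate 2, the lowest SELE array, and -0.12 without vehicle replicate 4, the highest.

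**Figure D2:**
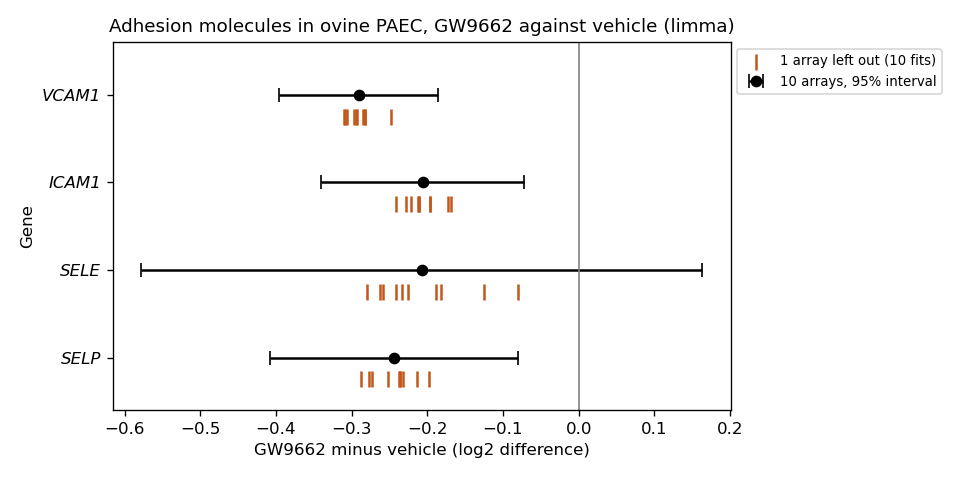
GW9662 minus vehicle on the log2 scale (horizontal axis) for each gene: points with 95% intervals from limma on 10 arrays, and short ticks for the 10 fits that each leave out 1 array. All estimates lie below 0, between -0.29 and -0.21 on all arrays, and only the SELE interval reaches past 0.

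RNA quality, as far as the arrays record it, differed between the treatment groups. The 3′ minus 5′ log2 value, averaged over 6 control transcripts, was 1.18 ± 0.085 (SD, n = 5) on vehicle arrays and 0.956 ± 0.074 on GW9662 arrays (exact permutation test, two-sided p = 0.00794, the smallest possible with 5 arrays a side). With this measure as a covariate, limma gave VCAM1 at -0.36 (adjusted p = 0.584), SELP at -0.27 (adjusted p = 0.968), SELE at -0.16 and ICAM1 at -0.06 (adjusted p = 1.00 each). ICAM1 moved the most under this fit. The SE rose with the covariate, for VCAM1 from 0.046 to 0.087 and for SELE from 0.16 to 0.32. The measure did not overlap between the groups, at 0.853 to 1.04 on GW9662 arrays and 1.07 to 1.30 on vehicle arrays. It therefore cannot be told apart from the treatment, and its part in these differences was not tested.

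The same 4 genes were then set between the bovine control and the ovine vehicle cells, and all 4 were lower in the bovine cells. Over all probe sets 45.2% passed limma's threshold in either direction and 29.6% were lower in bovine cells, so a pass by itself is common here. For all 4 genes the bovine arrays lay below all ovine vehicle arrays, which held for 40.5% of probe sets. After each array was centred on its median, 3740 probe sets were higher and 2715 lower in bovine cells, against 3740 and 7120 as deposited. Large differences were less common: 75 probe sets, 0.312%, had a log2 difference below -3, a limit chosen after the values were seen, and all 4 genes were among them.

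VCAM1 differed by -6.97 on the log2 scale, lower in bovine cells (SE 0.20, limma adjusted p = 1.3e-08), the third lowest of all probe sets. Its bovine mean of 2.41 ± 0.46 (SD, n = 5) lies at the floor, so the linear ratio of 125 between ovine and bovine signal depends on where that floor lies. SELE differed by -4.71 in the same direction (SE 0.11, limma adjusted p = 3.7e-09), from 3.19 ± 0.029 in bovine cells, and ranked 16th from the lowest. Its bovine reading was also close to the floor, and the linear ratio was 26.2.

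SELP differed by -3.94, again lower in bovine cells (SE 0.11, limma adjusted p = 1.1e-08), from 3.87 ± 0.22 against 7.80 ± 0.13 (SD, n = 5 each), a linear ratio of 15.3. ICAM1 was lower by -3.79 (SE 0.11, limma adjusted p = 1.2e-08), from 4.83 ± 0.23 against 8.63 ± 0.088, a linear ratio of 13.9. The array was designed for bovine transcripts. How well sheep RNA binds these probes was not measured, and its part in these differences was not tested.

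**Figure D3:**
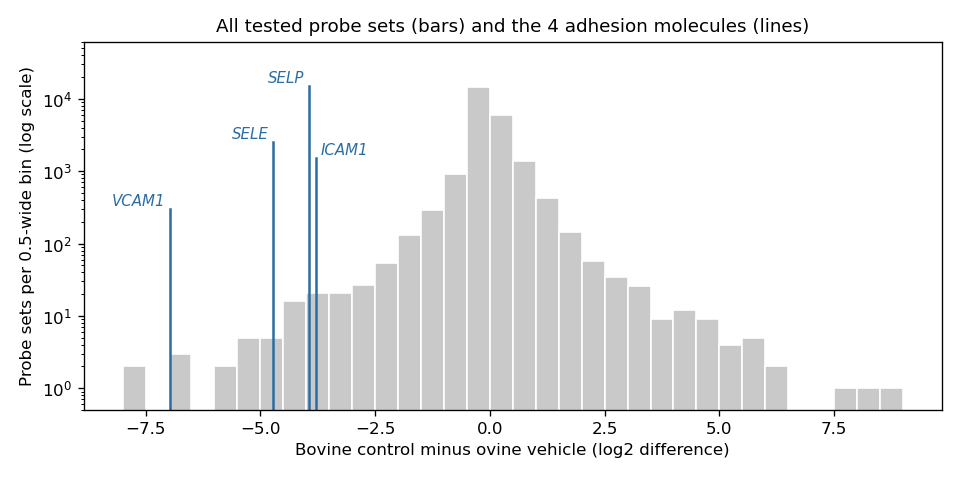
Number of probe sets (vertical axis, log scale) by bovine control minus ovine vehicle log2 difference (horizontal axis, bins 0.5 wide), with a line at the value of each of the 4 genes; line heights carry no value. The 4 lines, from -6.97 to -3.79, stand in the thin lower tail, where 75 of 24016 probe sets lie below -3.

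Against the GW9662 arrays, a comparison chosen after the data were seen that shares the bovine arrays, the bovine cells were lower by -6.68 for VCAM1, -4.51 for SELE, -3.69 for SELP and -3.59 for ICAM1 (limma adjusted p from 1.2e-08 to 2.1e-08). The 3′ minus 5′ measure differed between the controls too, at 0.881 ± 0.043 (SD, n = 5) in bovine cells and 1.18 ± 0.085 in ovine vehicle cells (two-sided exact permutation p = 0.00794). With it as a covariate the 4 differences ran from -7.17 for VCAM1 to -3.97 for SELP, with limma adjusted p of 0.000225 or less. Here too the measure did not overlap between the groups (0.843 to 0.942 against 1.07 to 1.30) and cannot be told apart from them.

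Markers of other cells bear on genes that platelets and leukocytes also carry. Of 14 leukocyte markers, 14 had a bovine mean under 3 and 12 an ovine vehicle mean under 3. PTPRC, the pan-leukocyte antigen, was at 2.89 and 2.98, and ITGB2, the β2 integrin chain that pairs with ICAM1, at 2.38 and 2.43. The ovine exceptions were CD3D at 3.16 and CD14, the endotoxin co-receptor, at 2.27 in bovine and 6.69 in ovine vehicle cells (log2 difference -4.42, limma adjusted p = 6.3e-10). The list's summed linear signal ran from 76.5 to 78.1 on bovine arrays, from 166 to 189 with vehicle and from 171 to 194 with GW9662. CD14 made up most of the step between the bovine and ovine sums.

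Platelet markers were mixed. ITGA2B was at 2.47 and 2.50 and PF4 at 2.63 and 2.73 in bovine control and ovine vehicle cells, all near the floor, while ITGB3, which endothelium also expresses, was at 12.2 and 12.1. TBXAS1, thromboxane synthase, was higher in bovine cells by 1.48 (5.79 against 4.31, limma adjusted p = 0.000954). For ITGB3 and TBXAS1, 1 further probe set each was called in the direction opposite to these values. The 4 measured of 8 listed summed to between 4535 and 4875 on bovine arrays, 3993 and 4823 with vehicle, and 4415 and 4569 with GW9662. ITGB3 made up nearly all of each sum.

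Smooth muscle and fibroblast markers summed to between 2916 and 3120 on bovine, 1328 and 1673 on vehicle and 1424 and 1797 on GW9662 arrays, with 9 of 12 under 3 in each group and ACTA2, MYH11 and DES among them. The other 3 were higher in bovine cells than with vehicle. The actin-binding TAGLN was higher by 1.83 (9.0 against 7.18, limma adjusted p = 5.8e-07). The smooth muscle protein SMTN was higher by 1.27 (5.19 against 3.91, limma adjusted p = 0.00103). The collagen gene COL1A2 was higher by 0.91 (11.2 against 10.3, limma adjusted p = 4.1e-06) and made up most of each smooth muscle and fibroblast sum. Epithelial markers summed to between 58.5 and 72.9, 55.4 and 72.7, and 59.7 and 68.4 in the same order, with 6 of 7 under 3 in each group, EPCAM and CDH1 included. The endothelial markers summed to between 12672 and 13744 on bovine, 10633 and 11574 on vehicle and 9516 and 10650 on GW9662 arrays. Of 13 measured, 6 were higher and 2 lower in bovine cells, and 1, 4 and 3 had means under 3 in bovine control, vehicle and GW9662 cells. The part of these differences in the adhesion results was not tested.

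The rest of the adhesion pathway was read from 7 lists holding 103 genes, of which 81 were measured, each by its brightest probe set. With GW9662 limma passed none of the 81; at an unadjusted p under 0.05, 6 were higher and 15 lower, against 7.67% and 12.5% of all named genes. The exception by another probe set was CAV1, the caveolin, where the second of its 2 probe sets passed as higher. By the brightest probe set 0.142% of all 9155 named genes passed upward and 0.0765% downward. Between bovine and ovine controls 17 of the 81 were higher, 28 lower and 36 did not pass, against 21.9% higher and 27.3% lower over all named genes. These shares are also the background for the counts of each list below. The median difference of the 81 was -0.03 on the log2 scale, against -0.02 over all named genes, and 1 of them, KLF4, lay below -3.

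Of 17 other adhesion and transmigration proteins of the endothelium, 3 were higher and 4 lower in bovine cells, with a median of -0.03. AOC3, an amine oxidase that also serves leukocyte adhesion, was higher by 0.86 (5.28 ± 0.19 against 4.41 ± 0.55, SD, n = 5, limma adjusted p = 0.0229), while 1 of its 3 probe sets was called in the opposite direction. It was named after its value was seen. CD47, a ligand that aids transmigration, was lower by -0.57 and the scavenger receptor STAB1 by -0.41 (limma adjusted p = 0.000218 and 0.00113). JAM2, a junctional adhesion molecule that also binds leukocyte integrins, was higher by 0.55 at a dim level (3.61 against 3.06, adjusted p = 0.0156), and CD99L2 lay under 3 in both groups. PECAM1 was at 0.05 by its brightest probe set (limma adjusted p = 0.329), while the other of its 2 probe sets was called as higher in bovine cells. With GW9662 the values closest to passing were MCAM at -0.19 and STAB1 at -0.27 (limma adjusted p = 0.178 and 0.212). ALCAM, a ligand of CD6 on T cells, was at 0.51 (10.4 ± 0.46 against 9.90 ± 0.15, SD, n = 5, limma adjusted p = 0.222), also named after its value was seen.

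Counter-receptors, which leukocytes carry, were mostly at the floor. Of 8 measured, 6 had means under 3 in all 3 groups, among them ITGA4, the partner of VCAM1, at 2.20 in bovine and 2.25 in ovine vehicle cells, ITGAM at 2.56 and 2.61, and the P-selectin ligand SELPLG at 2.25 and 2.29. In limma 6 of the 8 were lower in bovine cells, 4 of them on these floor values. ITGB1, the common β1 integrin chain, was bright and lower by -0.18 (limma adjusted p = 0.0346). With GW9662 limma passed 0 of 8, and 2 were lower at an unadjusted p under 0.05: ITGAM at -0.04 and ITGA4 at -0.03 (adjusted p = 0.218 and 0.223).

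Among 12 measured genes that anchor these receptors to the cytoskeleton or shed them, 4 were higher and 3 lower in bovine cells. EZR and MSN, the ezrin and moesin that link ICAM1 and VCAM1 to actin, were higher by 0.85 and 0.24 (limma adjusted p = 5.8e-07 and 0.00447). RHOG, a GTPase of the docking structure that surrounds a bound leukocyte, was higher by 0.55, and the actin crosslinker ACTN1 was lower by -0.37 (limma adjusted p = 0.00103 and 0.000545). With GW9662 CTTN, the cortactin of the same structures, was at -0.09 and FLNA, a filamin, at -0.21 (adjusted p = 0.166 and 0.217).

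The inducing cytokines themselves were at the floor. TNF was at 2.22, 2.25 and 2.23, IL1B at 2.33, 2.35 and 2.33 and IL6 at 2.54, 2.58 and 2.55 in bovine control, vehicle and GW9662 cells. Of the 13 measured cytokines and receptors, 2 were higher and 4 lower in bovine cells, of which 3, IL1A and IL4 among them, lay under 3 in both groups. IL4R, the receptor for a cytokine that induces VCAM1, was lower in bovine cells by -1.70 (4.99 against 6.69, limma adjusted p = 9.3e-05). TLR4, the endotoxin receptor, was higher by 0.28 (adjusted p = 0.0103). TNFRSF1A, the main TNF receptor of endothelium, was at 0.03 (10.7 in both groups). With GW9662 IL1R1 was at 0.19 and IL4, at the floor, at -0.03 (limma adjusted p = 0.217 and 0.219).

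Of 12 measured NF-κB signalling genes, 2 were higher and 3 lower in bovine cells, against 21.9% and 27.3% of all named genes. NFKBIA, the inhibitor that NF-κB itself induces, was lower by -1.12 (5.91 against 7.02, limma adjusted p = 2.9e-05), as was TNIP1, a restraint on the pathway, by -0.69 (adjusted p = 0.000171). The kinase CHUK was lower by -0.46 and the adaptor kinase RIPK1 higher by 0.47 (limma adjusted p = 0.000494 and 0.000275). With GW9662 NFKBIA was at -0.24 and TNIP1 at -0.23 (limma adjusted p = 0.256 and 0.218), the pair with the smallest p of this list.

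Of 10 other transcriptional regulators, 4 were higher and 4 lower in bovine cells. KLF4, a flow-responsive factor of quiescent endothelium, was lower by -3.16 (6.07 ± 0.11 against 9.22 ± 0.14, SD, n = 5, limma adjusted p = 5.1e-09). CEBPD, a factor of the acute inflammatory response, was lower by -0.93 (adjusted p = 6.5e-09) and the endothelial factor ERG by -0.20 (adjusted p = 0.000932), while the architectural protein HMGA1 was higher by 0.56 (adjusted p = 9.7e-05). With GW9662 CEBPD had the smallest adjusted p of all 81 genes, at -0.20 from 8.89 to 8.70 without overlap (limma adjusted p = 0.0836), and GATA6 was at 0.20 (adjusted p = 0.213).

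The granules that store P-selectin were represented by 9 measured genes, of which 2 were higher and 4 lower in bovine cells. CD63, the tetraspanin that shares these granules with P-selectin, was lower by -0.16 and RAB3D by -0.31 (limma adjusted p = 0.000380 and 0.00366). RAB27A, which guides granules to the cell edge, was higher by 0.72 and S100A10 by 0.24 (adjusted p = 0.000406 and 2.1e-05). With GW9662 limma passed 0 of 9, and 0 had an unadjusted p under 0.05, with VWF at the floor (-0.02, adjusted p = 0.251) and RAB27A at 0.20 (adjusted p = 0.249).

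**Figure D4:**
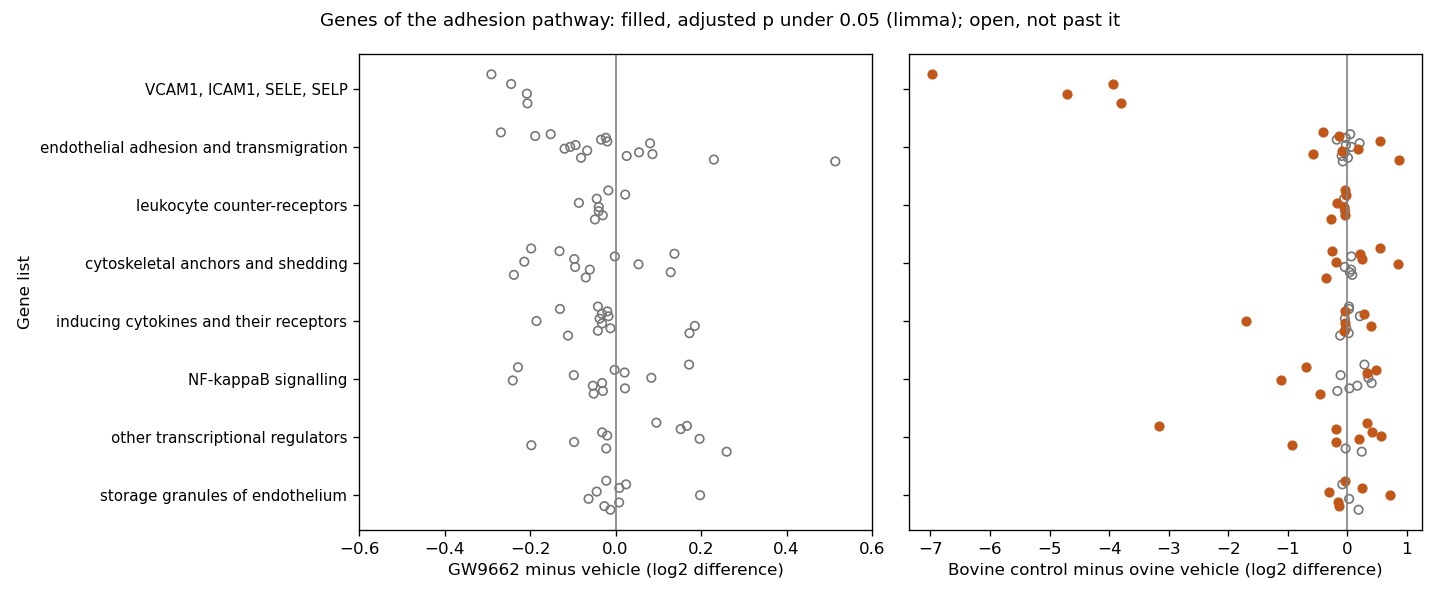
Log2 differences (horizontal axes, on different scales) of the 4 adhesion molecules and of the genes in 7 lists (rows), for GW9662 minus vehicle on the left and bovine control minus ovine vehicle on the right; filled points passed an adjusted p of 0.05 in limma. No point is filled on the left, and on the right the 4 adhesion molecules and KLF4 are the points below -3.

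Genes whose pattern was most like each of the 4 were found by Pearson's r over the 15 arrays, among 6049 bright probe sets with 1 symbol. The arrays fall into bovine and ovine ones, so such an r mainly records that step. For VCAM1 the closest were PROS1, an anticoagulant protein (r = 0.998), RPRM (0.998) and P3H2 (0.997), and 357 probe sets reached 0.95 or more. For ICAM1 they were VCAM1 itself (r = 0.996), the chemokine CCL26 (0.996) and RPRM (0.996). For SELE they were LIPA (r = 0.996), CXCL2 (0.996) and GRO1 (0.996), and for SELP CXCL2 (0.996), P3H2 (0.996) and LOC514170 (0.996). CXCL2 and GRO1 are neutrophil chemokines.

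Over the 10 ovine arrays alone the genes most like the 4 were others, and r was lower. They were DPCD (r = 0.948), ID1 (0.935) and FHL3 (0.917) for VCAM1, and CCDC28B (0.961), FHL3 (0.95) and POLDIP2 (0.942) for SELP. For ICAM1 they were PEBP1 (0.927), CYB561A3 (0.923) and EXOSC4 (0.922), and for SELE ARID1A (0.895), the monocyte chemokine CCL2 (0.887) and CHUK (0.879). These arrays share the treatment groups, and the values are descriptions. After group means were removed, r between pairs of the 4 genes over the 10 ovine arrays ran from -0.37 to 0.58. The lowest was for VCAM1 and ICAM1, the only negative pair, and the highest for VCAM1 and SELP. Whether the 4 vary together was not tested.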

How the data were processed

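The authors deposited log2 expression values of 24128 probe sets, made with RMA per the submitters' processing notes; the version, and which arrays were normalised together, are not given in the sources used here. The array medians of the probe set values ran from 3.18 to 3.27. RMA usually sets quantiles equal before probes are summarised into probe sets, so these medians do not show which arrays were normalised together. Tests left out 112 platform controls. Of the other 24016 probe sets, 13292 had 1 gene symbol, 86 several and 10638 none.

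The 2 groups of a comparison, 10 arrays, were fitted by limma (version 3.58.1, R 4.3.3) using lmFit and eBayes, and p-values were adjusted after Benjamini and Hochberg over the 24016. The fits were tested on simulated data. Up to 4 genes of a list past the threshold were named by smallest p, or 2 where none passed; others were chosen after their values were seen. Likeness took the 3 highest r per gene among probe sets with a mean of 5 or more. Members, lists and rules were chosen with earlier results of these data known. The alternatives were array centring, a second quantile normalisation, leaving out dim probe sets, trended and robust variance estimation together, array weights, all 15 arrays, the replicate block, the 3′ minus 5′ covariate, 1 probe set per gene and leaving out each array.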

Additional observations from a re-analysis of the deposited data

Results flagged for a closer look

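An array was flagged where its gap to the next one, divided by the range of its set, passed 0.71 (Dixon's ratio). Of 12 sets of 5 arrays (4 genes in 3 groups) 2 held such an array, where chance flags about 1 set in 20. Whether this exceeds chance was not tested. VCAM1 on vehicle replicate 3 read 9.55, above the other vehicle arrays at 9.30 to 9.37 (ratio 0.716, barely past the limit). SELE on GW9662 replicate 2 read 7.18, below the other GW9662 arrays at 7.76 to 7.89 (ratio 0.815).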

How the results depend on the processing

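In the comparison of bovine control with ovine vehicle all 4 genes stayed lower and past the threshold under every alternative run. For GW9662 all 4 differences stayed negative under every alternative run. The number of the 4 genes past the threshold, 0 as reported, was 1 (VCAM1) after a second quantile normalisation (log2 difference -0.34), with array weights (-0.31) and with the brightest probe set of each gene (-0.29, fewer probe sets tested). Leaving out each array gave 0 to 1 genes and -0.31 to -0.25 for VCAM1. Whether equal replicate numbers mark paired samples is not in the labels. Same-numbered vehicle and GW9662 arrays correlated between -0.19 and 0.17 in their deviations, and no array was closest to its own number. Such correlations cannot exclude a pairing. With the replicate block limma called 0 probe sets for GW9662 (3205 at an unadjusted p under 0.05) and gave VCAM1 an adjusted p of 0.184. The block lowered the SE of SELP from 0.072 to 0.037 (limma adjusted p = 0.153) and that of SELE from 0.16 to 0.10. It raised the SE of VCAM1 from 0.046 to 0.052 and that of ICAM1 from 0.059 to 0.075. For the controls the block fit called 5396, and all 4 genes passed.

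The counts over all probe sets moved more. For GW9662 the 44 (35 higher, 9 lower) became 67 (61 and 6) with centring, 62 (38 and 24) after quantile normalisation, 76 without dim probe sets, 26 with trended and robust variance estimation together, 237 with all 15 arrays, 0 with the 3′ minus 5′ covariate (1312 at an unadjusted p under 0.05) and 9 to 62 without 1 array (9 without vehicle replicate 5, and 17 to 23 without vehicle replicate 2 or GW9662 replicates 1, 2, 4 or 5). For the controls the 10860 (3740 higher, 7120 lower) became 6455 (3740 and 2715) with centring, 6802 (3224 and 3578) after quantile normalisation, 1601 with the covariate and 7052 with GW9662 arrays in place of vehicle, and 13157 with trended and robust variance, 13336 with all 15 arrays and 11342 with array weights. The cause was not tested. With fewer probe sets tested, 6586 passed without dim ones (50.5% of 13038) and 4020 by gene (43.9% of 9155), against 45.2%.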

Other observations

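In the RefSeq sheep annotation F5, coagulation factor V, lies next to SELP, and METTL18 lies next to SELE. These neighbouring genes were chosen by position after the data were seen. F5 differed in the direction opposite to SELP and SELE: it was higher in bovine cells by 6.33 (8.83 ± 0.12 against 2.50 ± 0.16, SD, n = 5, limma adjusted p = 1.5e-10), and the ovine value lies at the floor. Beside SELE, METTL18 was lower in bovine cells by -0.95 (8.34 against 9.29, limma adjusted p = 3.7e-07) and SCYL3, beyond it, by -0.95 (adjusted p = 2.1e-06). With GW9662 these 3 genes were at 0.04, 0.07 and -0.06 (limma adjusted p = 0.804, 0.220 and 0.484).

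ICAM1 lies in the same annotation beside MRPL4, a mitochondrial ribosomal protein, with ICAM4 and ICAM5 on its other side, which were not analysed here. MRPL4 was higher in bovine cells by 0.29 (8.29 against 8.01, limma adjusted p = 0.00563), where ICAM1 was lower by -3.79.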
